A study of Rattus norvegicus with 6 samples.

Results

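Expression was examined for 28 genes of cholesterol and fatty acid synthesis in cartilage cells of the rat jaw joint (mandibular condylar chondrocytes). The genes were chosen by symbol from a list of mevalonate and sterol enzymes, of genes that control the SREBP transcription factors and move sterols, and of fatty acid enzymes, and all 28 were among the 17954 genes measured. Messenger RNA was sequenced in 3 libraries of condylar cartilage organoids, small cartilage tissues kept in a chondrogenic medium that the labels do not describe further, and in 3 libraries of flat (2D) culture kept in DMEM with 20% fetal bovine serum. Culture format and medium therefore differ together and cannot be told apart. The labels give no strain, age or sex, and do not tie libraries to animals or cultures. The p-values therefore reflect only differences among these particular samples, which may be technical.

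Cells make cholesterol from acetyl-CoA through mevalonate, isoprenoids, squalene and lanosterol. When sterols in the endoplasmic reticulum run low, the escort protein SCAP carries the SREBP factors to the Golgi for cleavage, and the freed factors switch on nearly every enzyme of the route. When sterols are plentiful, INSIG proteins hold SCAP and its cargo back. SREBP-2 acts mainly on sterol genes, and SREBP-1c on fatty acid genes.

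Library totals were 18592574 to 25656808 estimated counts in organoids and 25856486 to 26472447 in 2D culture. The 10 most abundant genes of a library took 36.8% to 43.2% of counts in organoids and 11.5% to 12.5% in 2D culture. Organoid libraries differed more from each other than 2D libraries did, with Spearman correlations of 0.847 to 0.913 within organoids and 0.992 to 0.994 within 2D culture. The label chondrocyte was checked against 8 cartilage markers, of which 7 were higher in organoids and 0 lower (edgeR adjusted p under 0.05). Their summed level was 11486 to 99455 CPM in organoids and 1499 to 1601 CPM in 2D culture. Most of the 2D sum was Acan, the 1 cartilage marker not called (edgeR adjusted p = 0.0824). Acan was at 1454, 1513 and 1413 CPM in 2D culture, against 8278, 1717 and 3044 CPM in organoids. Col2a1, the main cartilage collagen, averaged only 4.01 CPM in 2D culture. Markers of bone-forming cells (osteoblasts) were also higher in organoids, 8 of 8 (edgeR adjusted p under 0.05). They summed to 237877 to 419569 CPM in organoids and 26333 to 35475 CPM in 2D culture, mostly Col1a1, the collagen of bone and many other tissues, and Ibsp, a bone matrix protein, was at 7648 to 14455 CPM in organoids and 1.92 to 2.21 CPM in 2D culture. Of 7 fat cell markers 2 passed the low-count filter, and Fabp4, a fatty acid carrier, was higher at 10.8, 7.57 and 5.06 CPM in organoids, against 0.276, 0.275 and 0.402 CPM in 2D culture (edgeR adjusted p = 0.00414). The 7 summed to 9.13 to 22.9 CPM in organoids and 24.5 to 26.8 CPM in 2D culture, mostly Lpl in 2D culture, with Lep at 0 in all 6 libraries and Adipoq at 0.884 CPM or less. Of 8 macrophage markers 2 were tested and 0 called, with sums of 12.3 to 52.7 CPM in organoids and 7.43 to 10.6 CPM in 2D culture. Csf1r, which did not pass the low-count filter, was at 32.5, 16.7 and 0.142 CPM in organoids, against 0.153, 0 and 0.279 CPM in 2D culture. Cd14 was at 18.6, 22.0 and 10.4 CPM in organoids, against 8.09, 6.85 and 9.47 CPM in 2D culture (edgeR adjusted p = 0.0863). Adgre1 was at 0 in all libraries and Ptprc at 0.142 CPM or less. Of 8 endothelial markers 2 were tested and 1, Esam, was higher. The 8 summed to 9.56 to 57.5 CPM in organoids, mostly Esam, and 0.797 to 1.27 CPM in 2D culture. Kdr was at 0 in all organoids and Pecam1 at 0.471 CPM or less in all libraries. Of 8 proliferation markers 6 were lower in organoids and 0 higher, and they summed to 120 to 326 CPM in organoids and 856 to 896 CPM in 2D culture; the part of these cell types and of proliferation in the results was not tested.

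The question here is what changes in lipid synthesis between organoid and flat culture. Insig1, Insig2 and Stard4 of the control genes and the enzyme genes Lss and Acly rose in organoids, by 1.94-fold to 5.29-fold, and Scap and Fasn fell. Most enzymes of the sterol route did not pass. Of the 28 genes, all of which passed the low-count filter, 5 rose, 2 fell and 21 did not pass, which is 25% called. Among all 13052 genes tested 27.5% were called, 14.9% higher and 12.6% lower, so the share called is near the background. At an unadjusted p under 0.05 there were 12 of the 28 genes (42.9%), against 40.6% of all genes. By role, 4 of 6 genes of SREBP control and sterol transport were called, 2 of 5 of fatty acid synthesis, 1 of 11 squalene and sterol enzymes and 0 of 6 mevalonate enzymes; these shares were not tested against each other. The median log2 fold change (organoid over 2D culture) of the 28 genes was 0.05 beside -0.03 for all genes, and the median absolute change was 0.74 beside 0.87. A change of less than 2-fold was fitted for 20 of the 28 genes (71.4%) and for 55.6% of all genes. Groups did not overlap for 12 of the 28 genes, 6 with all organoids above and 6 with all below, where 53.5% of all genes did not overlap, 23.4% with organoids above and 30.2% below. The count of 7 called genes was 1 without 2D culture 1, 2 or 3, where 8.32%, 9.06% and 8.28% of all genes were called. It was 11 without organoid 2, where 39.6% of all genes were called. When libraries were scaled by their total counts alone (called total library size below), which moved the median of all genes to -0.65, 1 of the 28 genes was higher and 7 were lower. Of all genes 35.2% were called in that setting, 1063 higher and 3529 lower. Calls of single genes lost in these settings, given below, are to be read beside these shares.

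**Figure D1:**
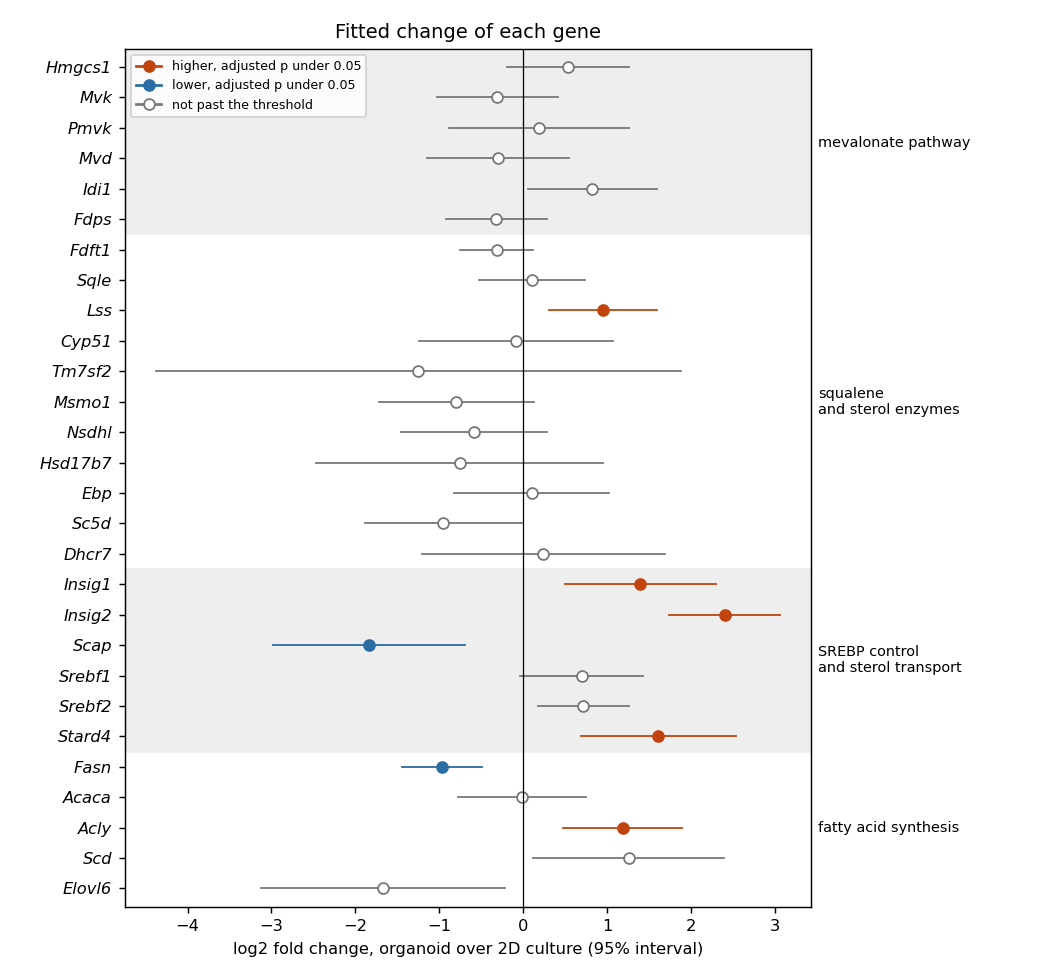
Log2 fold change of each gene, organoid over 2D culture, with its 95% interval, grouped by role from top to bottom. Filled red points (5 genes) are higher and filled blue points (2 genes) lower at an adjusted p under 0.05, and open grey points (21 genes) did not pass. The intervals of 5 of the 6 mevalonate enzymes span 0, while Insig2 lies farthest to the right at 2.40.

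Both INSIG genes rose. Insig2 (gene ID 288985), whose protein retains SCAP in the endoplasmic reticulum, was at 161, 91.3 and 107 CPM in organoid 1, 2 and 3, against 24.7, 20.1 and 23.2 CPM in 2D culture 1, 2 and 3. Every organoid stood far above every 2D library, and organoid 1 was the highest. The fitted change was 2.40 ± 0.28 on the log2 scale (SE), or 5.29-fold (edgeR adjusted p = 0.00215). Insig2 was the 1 gene of the 28 called in all 13 alternative settings, with an adjusted p of 0.0218 at most. Insig1, its partner and itself a classic SREBP target, was at 205, 73.4 and 170.3 CPM in organoids, against 61.2, 53.1 and 56.2 CPM in 2D culture. All organoids lay above all 2D libraries, organoid 2 only narrowly, and reads of Insig1 were partly shared with other genes in 4 libraries. Insig1 rose by 1.40 ± 0.38, or 2.63-fold (edgeR adjusted p = 0.0354). That call was lost without organoid 1 (adjusted p = 0.0815), without organoid 3 (0.0733), without 2D culture 1, 2 or 3 (0.122, 0.132 and 0.132) and with total library size (0.125).

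Scap, the sterol-sensing escort of the SREBPs, fell. It was at 25.7, 9.25 and 7.81 CPM in organoids, against 51.5, 50.8 and 50.9 CPM in 2D culture. Every organoid was below every 2D library, and organoid 1 stood well above the other organoids. The log2 fold change was -1.84 ± 0.48 (edgeR adjusted p = 0.0313). It lost its call without organoid 2 (adjusted p = 0.0617), without organoid 3 (0.0514) and without 2D culture 1, 2 or 3 (0.104, 0.0972 and 0.101), and kept it with total library size. Stard4, a carrier that moves cholesterol between membranes and is an SREBP-2 target, had 47.5, 24.5 and 66.2 CPM in organoids, against 13.2, 14.6 and 17.5 CPM in 2D culture. The groups did not overlap, and the log2 fold change was 1.61 ± 0.39 (edgeR adjusted p = 0.0241). The call of Stard4 was lost without organoid 1 (adjusted p = 0.0519), without 2D culture 1, 2 or 3 (0.113, 0.102 and 0.0896) and with total library size (0.0951).

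The SREBP genes themselves did not pass. Srebf2, which encodes SREBP-2, was at 362, 233 and 264 CPM in organoids, against 164, 179 and 179 CPM in 2D culture. All organoids were above all 2D libraries, with a log2 fold change of 0.72 ± 0.23 and a 95% interval of 0.17 to 1.26 (edgeR adjusted p = 0.0573). Srebf2 passed with DESeq2 (adjusted p = 0.0104), with limma-voom (0.0433, or 0.046 once groups were weighted) and without organoid 2 (0.0121). Srebf1, which encodes both SREBP-1 forms, was at 76.5, 40.0 and 82.1 CPM in organoids, against 41.3, 36.7 and 44.6 CPM in 2D culture. Organoid 2 fell within the 2D range here while the other organoids lay above it. The log2 fold change was 0.70 ± 0.31 (edgeR adjusted p = 0.138, and 0.00529 without organoid 2), and Srebf1 shared reads with other genes in 6 libraries, which makes its level uncertain.

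**Figure D2:**
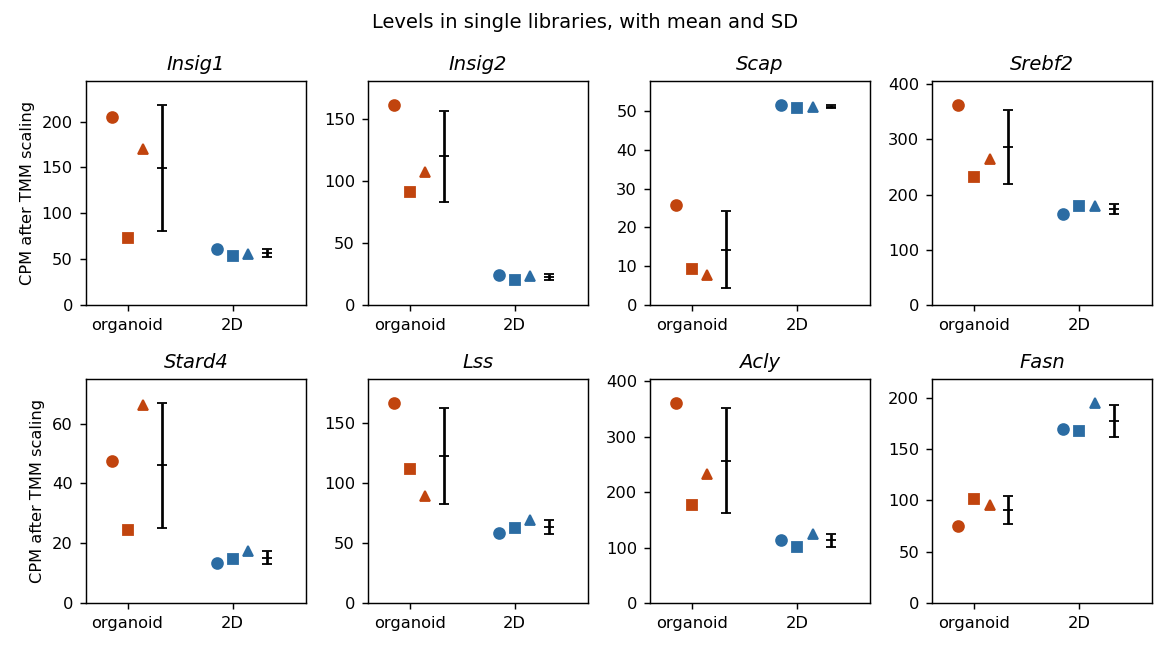
CPM after TMM scaling (linear axes from 0) of the 7 called genes and Srebf2, with circles, squares and triangles for libraries 1, 2 and 3 of each group, organoids on the left and 2D cultures on the right, and bars for mean and SD (n = 3). Scap and Fasn lie lower in all organoids and the other genes higher, and organoid points are spread more widely than 2D points in every panel but that of Fasn.

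Promoter sequence is shown for the called genes that have a window in the RefSeq promoter table and for Srebf2, since SREBPs act through short elements near the start of their targets together with the factors NF-Y (letters CCAAT) and Sp1 (letters GGGCGG). Of the 28 genes, 21 matched a window of 300 bases, from 250 before the start to 50 after it, in RefSeq build GRCr8. Only the first window listed for a gene was used, so any other start of these genes was not examined. A window may therefore not be the promoter in use in these cells. The windows of Insig1 (chr4:8057720-8058019, minus strand), Insig2 (chr13:35040049-35040348, minus strand), Srebf2 (chr7:115543057-115543356, plus strand), Scap (chr8:119184188-119184487, plus strand), Lss (chr20:12118181-12118480, minus strand) and Acly (chr10:85963582-85963881, minus strand) read as follows on the strand of the gene, 5′ to 3′, with capitals that mark the letters CCAAT, the E-box CACGTG and the sterol element core TCACCCCA on either strand.
Insig1: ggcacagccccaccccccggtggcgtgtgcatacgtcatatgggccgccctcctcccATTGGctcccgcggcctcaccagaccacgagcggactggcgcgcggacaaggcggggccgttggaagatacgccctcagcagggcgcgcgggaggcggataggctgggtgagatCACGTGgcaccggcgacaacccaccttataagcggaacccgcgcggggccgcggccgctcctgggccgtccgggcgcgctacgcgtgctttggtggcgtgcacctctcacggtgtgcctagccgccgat
Insig2: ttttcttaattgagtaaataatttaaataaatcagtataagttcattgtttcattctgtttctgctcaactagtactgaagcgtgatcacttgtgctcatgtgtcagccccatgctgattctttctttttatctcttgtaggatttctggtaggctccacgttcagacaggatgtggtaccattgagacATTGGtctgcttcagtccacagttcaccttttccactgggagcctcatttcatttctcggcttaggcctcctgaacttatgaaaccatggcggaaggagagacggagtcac
Srebf2: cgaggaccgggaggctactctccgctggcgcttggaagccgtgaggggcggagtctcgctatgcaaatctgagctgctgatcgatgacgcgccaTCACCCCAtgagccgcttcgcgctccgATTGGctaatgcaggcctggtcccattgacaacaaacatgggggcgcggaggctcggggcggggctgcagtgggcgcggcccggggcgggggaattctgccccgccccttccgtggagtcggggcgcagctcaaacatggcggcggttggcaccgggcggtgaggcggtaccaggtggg
Scap: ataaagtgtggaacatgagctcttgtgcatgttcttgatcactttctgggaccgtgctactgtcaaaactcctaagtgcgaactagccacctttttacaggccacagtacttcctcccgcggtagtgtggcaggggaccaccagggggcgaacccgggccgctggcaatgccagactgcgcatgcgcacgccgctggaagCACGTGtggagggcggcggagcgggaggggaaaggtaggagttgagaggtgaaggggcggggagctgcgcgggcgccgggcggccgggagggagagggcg
Lss: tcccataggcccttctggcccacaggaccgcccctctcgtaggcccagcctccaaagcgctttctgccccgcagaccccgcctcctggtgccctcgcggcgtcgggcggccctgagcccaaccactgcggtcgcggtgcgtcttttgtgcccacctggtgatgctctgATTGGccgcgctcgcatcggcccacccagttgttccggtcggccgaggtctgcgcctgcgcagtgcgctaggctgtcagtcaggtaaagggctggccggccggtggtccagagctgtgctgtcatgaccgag
Acly: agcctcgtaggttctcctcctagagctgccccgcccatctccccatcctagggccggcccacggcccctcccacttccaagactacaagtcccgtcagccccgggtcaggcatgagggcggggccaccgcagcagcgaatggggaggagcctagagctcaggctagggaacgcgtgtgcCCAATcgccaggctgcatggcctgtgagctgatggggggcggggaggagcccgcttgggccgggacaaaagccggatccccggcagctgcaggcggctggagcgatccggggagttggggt
The letters CCAAT, searched like all motifs on both strands, occurred in 17 of the 21 windows (81.0%), beside 37.9% of the windows of 10615 tested genes and 37.5% of all 33469 windows. They were absent from the windows of Scap, Cyp51, Dhcr7 and Scd. In Insig2, Acly, Lss, Srebf2 and Insig1 the CCAAT letters began at base -61, -71, -82, -129 and -193 from the start. GGGCGG was in 17 of 21 windows (81.0%, beside 61.8% of tested genes) and CACGTG, an E-box that SREBPs can also bind, in 3 of 21 (14.3%, beside 9.26%): those of Insig1, Scap and Sc5d. TCACCCCA, the core of the classic sterol regulatory element, was in 1 of 21 (4.76%, beside 1.18% of tested genes), that of Srebf2 at base -156. The related form TCACNCCAC, where N is any letter, can share its first bases with that core but needs a further C at its end. It was in 0 of 21 and in 1.09% of tested genes. A match is a description of letters, and called and uncalled genes were not tested against each other for it.

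The mevalonate enzymes were tested gene by gene, and not as a group. None of the 6 was called, where 27.5% of all genes were, at an unadjusted p under 0.05 there was 1, and their fitted changes ran from -0.32 to 0.83 on the log2 scale, 3 above and 3 below 0. In all 6 the groups overlapped. Idi1, which isomerises isopentenyl diphosphate, had 32.3, 62.0 and 70.1 CPM in organoids, against 28.2, 34.5 and 29.9 CPM in 2D culture. Organoids 2 and 3 were clearly above the 2D cultures and organoid 1 within their range, giving a log2 fold change of 0.83 ± 0.32 (edgeR adjusted p = 0.102, and 0.0136 without organoid 1). Hmgcs1, the cytosolic synthase that makes HMG-CoA, had 93.3, 54.7 and 121 CPM in organoids, against 57.7, 61.5 and 66.4 CPM in 2D culture. Organoid 2 was again below the other organoids and below the 2D cultures, and the log2 fold change of 0.53 ± 0.31 did not pass (edgeR adjusted p = 0.238, and 0.012 without organoid 2). Mvk, the first kinase of the route, averaged 17.4 ± 5.18 CPM in organoids and 21.5 ± 0.578 CPM in 2D culture (SD, n = 3 each). Pmvk, the next kinase, averaged 14.5 ± 6.90 CPM in organoids and 12.7 ± 1.16 CPM in 2D culture. Their 95% intervals were -1.03 to 0.41 and -0.88 to 1.26 on the log2 scale. Mvd, the decarboxylase, averaged 28.6 ± 13.6 CPM in organoids and 35.3 ± 2.75 CPM in 2D culture (-0.30 ± 0.35, edgeR adjusted p = 0.565, and 0.0377 without organoid 3). Fdps, which builds farnesyl diphosphate, averaged 150.1 ± 44.3 CPM in organoids and 187 ± 9.61 CPM in 2D culture, with an interval of -0.92 to 0.28, and was called lower with total library size (-0.93, adjusted p = 0.0434).

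**Figure D3:**
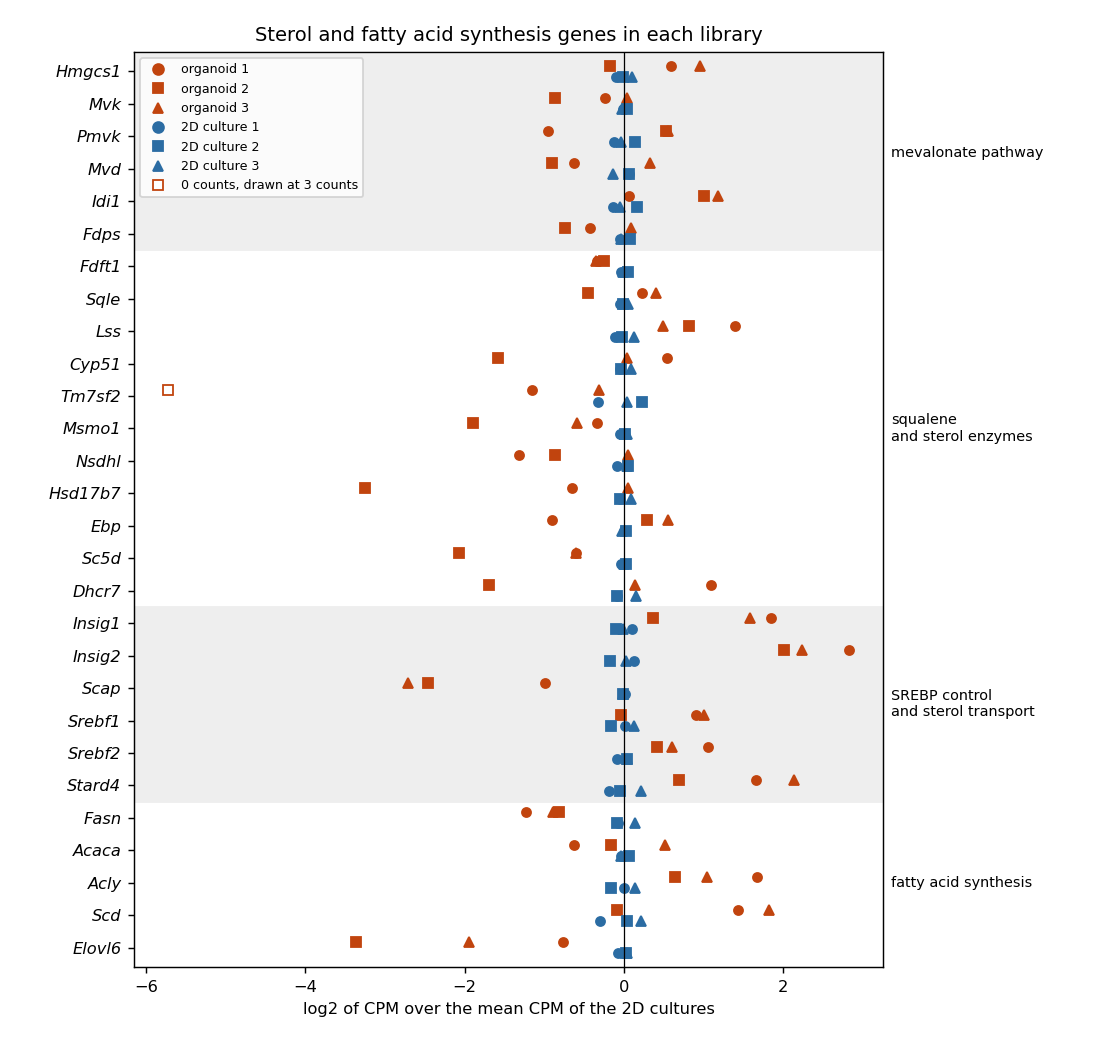
Level of each gene in each library as log2 of its CPM over the mean CPM of the 2D cultures, with organoids in red above 2D cultures in blue and circles, squares and triangles for libraries 1, 2 and 3. The 2D points sit close to 0 in every row, while organoid 2 (red squares) is the lowest organoid in 19 of 28 rows, farthest for Tm7sf2, where it had 0 counts and is drawn open at the level of 3 counts.

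Among the squalene and sterol enzymes only Lss passed. Lss, lanosterol synthase, which closes squalene epoxide into the first sterol, was at 167, 112 and 89.2 CPM in organoids, against 58.5, 62.3 and 69.4 CPM in 2D culture. The groups did not overlap, and the log2 fold change was 0.95 ± 0.27, or 1.94-fold (edgeR adjusted p = 0.0411). The call of Lss was lost without 2D culture 1, 2 or 3 (adjusted p = 0.171, 0.152 and 0.132), with total library size (0.348), with no filter on low counts (0.059) and with the replicate block (0.083). The enzymes just before it in the route did not pass. Fdft1, squalene synthase, was at 43.2, 45.8 and 42.7 CPM in organoids, against 53.1, 56.6 and 53.9 CPM in 2D culture. Its organoids were all lower by a small step and closely alike, with a log2 fold change of -0.31 ± 0.18 (edgeR adjusted p = 0.247), and Fdft1 was called lower with total library size (-0.93, adjusted p = 0.0228). Sqle, squalene epoxidase and a slow step of the route, had 55.2, 34.4 and 62.4 CPM in organoids, against 45.7, 46.7 and 49.1 CPM in 2D culture, with an interval of -0.53 to 0.73 on the log2 scale.

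The 8 enzymes after lanosterol, which strip and rearrange it into cholesterol, included 0 called genes, with 6 fitted changes below 0 and 2 above. Sc5d, the sterol C5 desaturase, was at 60.0, 21.6 and 59.9 CPM in organoids, against 88.8, 93.0 and 91.7 CPM in 2D culture. Every organoid was lower, and the log2 fold change of -0.95 ± 0.39 did not pass (edgeR adjusted p = 0.117), though it did without organoid 2 (-0.56, adjusted p = 0.0142), with total library size (0.0153) and with group-weighted limma-voom (0.0348). Msmo1, the C4 methyl oxidase, had 69.8, 23.7 and 58.9 CPM in organoids, against 85.6, 89.0 and 90.6 CPM in 2D culture (-0.80 ± 0.39, edgeR adjusted p = 0.172, and 0.0174 with total library size). Its groups did not overlap either. Nsdhl, which acts with Msmo1 on the C4 methyl groups, had 21.2, 29.2 and 55.1 CPM in organoids, against 49.8, 54.7 and 54.3 CPM in 2D culture, and organoid 3 lay above the other organoids and level with 2D culture (edgeR adjusted p = 0.273, and 0.0179 without organoid 3). Ebp, the sterol isomerase, averaged 23.3 ± 10.4 CPM in organoids and 21.7 ± 0.404 CPM in 2D culture (SD, n = 3 each), with a 95% interval of -0.82 to 1.03 on the log2 scale.

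Organoid 2 stood apart from the other organoids in many of these enzymes. Cyp51, the lanosterol demethylase, was at 229, 52.5 and 162 CPM in organoid 1, 2 and 3, against 151, 153 and 167 CPM in 2D culture. Dhcr7, which carries out the last reduction to cholesterol, was at 78.4, 11.4 and 40.6 CPM in organoids, against 34.6, 34.8 and 40.9 CPM in 2D culture. In both genes organoid 2 was far below all other libraries while organoid 1 was above them. Hsd17b7, the sterol ketoreductase, was at 11.0, 1.80 and 17.8 CPM in organoids, against 16.7, 16.6 and 18.3 CPM in 2D culture. Tm7sf2, a sterol C14 reductase, was at 4.30, 0 and 7.71 CPM in organoids, against 7.63, 11.1 and 9.84 CPM in 2D culture, where 0 counts in organoid 2 allow up to 0.18 CPM. For these 4 genes the highest and lowest organoid were so far apart that the intervals were wide, -1.24 to 1.07 for Cyp51, -1.21 to 1.69 for Dhcr7, -2.46 to 0.95 for Hsd17b7 and -4.38 to 1.88 for Tm7sf2. Organoid 2 was the lowest organoid for 19 of the 28 genes (67.9%), beside 35.8% of all genes tested, and the lowest of all 6 libraries for 12 (42.9%), beside 26.9%. By role it was the lowest organoid for 4 of 6 mevalonate enzymes, 7 of 11 squalene and sterol enzymes, 5 of 6 control genes and 3 of 5 fatty acid genes. The 11 squalene and sterol enzymes summed to 751, 359 and 628 CPM in organoid 1, 2 and 3, against 614, 640 and 666 CPM in 2D culture. Organoid 2 also had the smallest total count and the lowest summed level of the 8 cartilage markers, 11486 CPM beside 99455 CPM in organoid 1 and 30636 CPM in organoid 3. Its sum of the 8 osteoblast markers was the lowest as well. That sum was mostly Col1a1, and organoid 2 was the lowest organoid for only 2 of these 8 markers. The part of these differences in the sterol levels was not tested. In a bulk sample fewer cells of a type and less RNA per cell cannot be told apart. The median SD of log2 CPM over the 28 genes was 0.67 in organoids and 0.09 in 2D culture, beside 0.69 in organoids and 0.14 in 2D culture for all genes.

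Acly rose and Fasn fell among the fatty acid enzymes. Acly (gene ID 24159), which splits exported citrate into the acetyl-CoA that feeds both fatty acid and sterol synthesis, was at 361, 176 and 233 CPM in organoids, against 113, 101 and 124 CPM in 2D culture. Every organoid was above every 2D library. The log2 fold change was 1.19 ± 0.30, or 2.28-fold (edgeR adjusted p = 0.0277). Acly lost its call without 2D culture 1, 2 or 3 (adjusted p = 0.119, 0.125 and 0.103) and with total library size (0.12). Fasn (gene ID 50671), the synthase that builds palmitate, was at 75.4, 101 and 95.7 CPM in organoids, against 169, 168 and 195 CPM in 2D culture. Here every organoid was lower, and the 3 organoids were closer to each other than for most other genes described. Its log2 fold change was -0.97 ± 0.20 (edgeR adjusted p = 0.0153), and the call was lost without 2D culture 1, 2 or 3 (adjusted p = 0.0724, 0.0685 and 0.0901) and in none of the other 10 settings. Acaca, the carboxylase that makes the malonyl-CoA for Fasn, was at 19.7, 27.3 and 43.5 CPM in organoids, against 29.7, 32.0 and 29.7 CPM in 2D culture. The organoids lay on both sides of the 2D cultures, and the interval was -0.78 to 0.75 on the log2 scale (edgeR adjusted p = 0.981).

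The enzymes that modify palmitate did not pass. Elovl6, which lengthens it to stearate, was at 15.7, 2.58 and 6.91 CPM in organoids, against 25.3, 27.3 and 27.5 CPM in 2D culture. All organoids were lower, by very unequal amounts (-1.67 ± 0.61, edgeR adjusted p = 0.0858). Elovl6 passed without organoid 1 (adjusted p = 0.0226), with DESeq2 (0.0284), with limma-voom (0.0241, or 0.0392 once groups were weighted) and with total library size (0.0143). Scd, the desaturase that turns stearate into oleate, was at 50.2, 17.5 and 65.4 CPM in organoids, against 15.1, 19.0 and 21.5 CPM in 2D culture. Organoids 1 and 3 were above the 2D cultures and organoid 2 was within their range (1.26 ± 0.48, edgeR adjusted p = 0.0944). Scd was called by DESeq2 (adjusted p = 0.0345) and when organoid 2 was left out (0.00436), and it shared reads with other genes in all 6 libraries, so its level is uncertain.

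**Figure D4:**
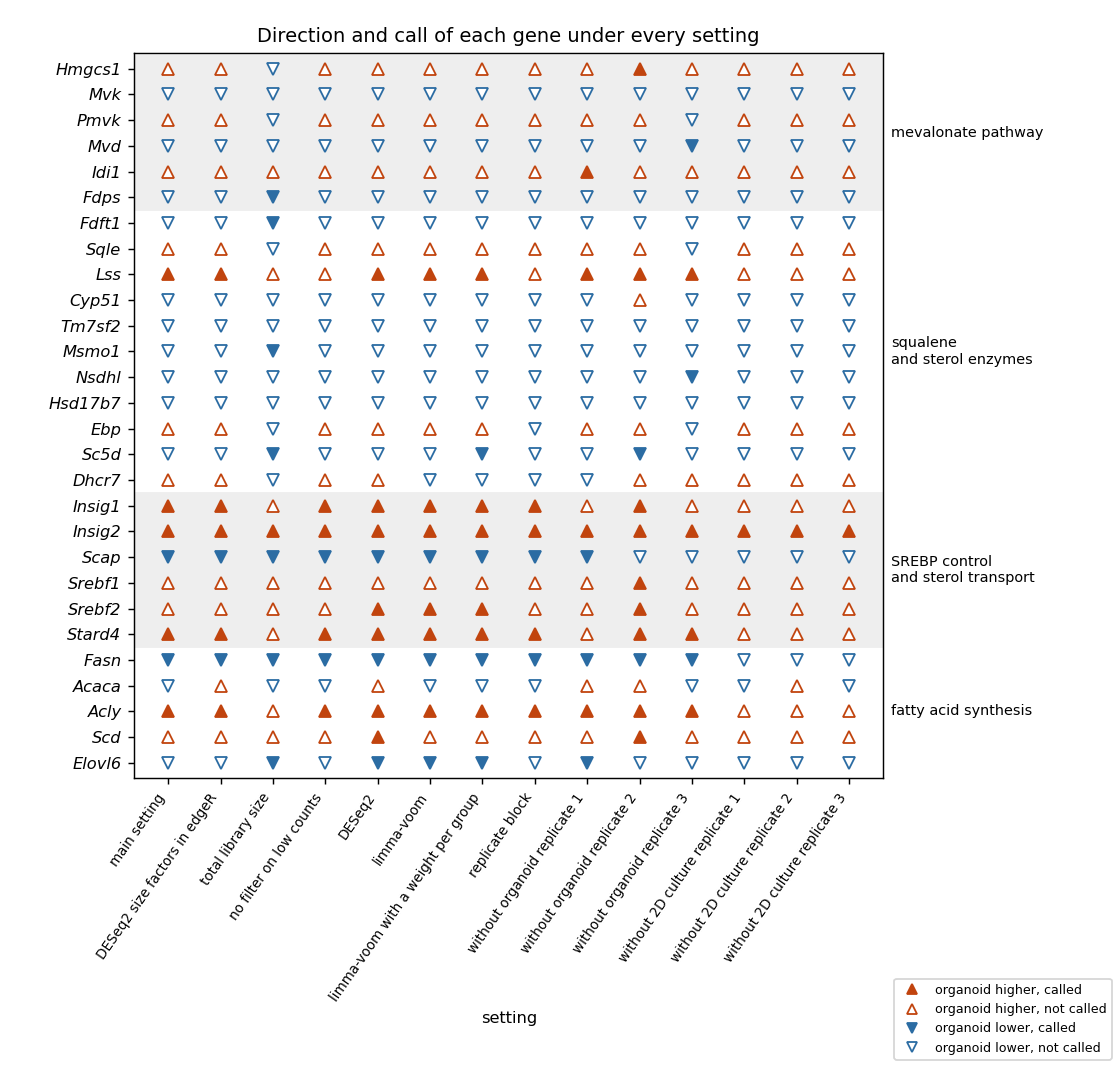
Direction (triangle up for organoid higher, triangle down for organoid lower) and call (filled, adjusted p under 0.05) of each gene in the main setting, on the left, and in 13 alternatives. Insig2 is filled in every column, the 3 columns that leave out a 2D culture hold 1 filled symbol each, and the enzymes above Insig1 are mostly open.

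Neighbouring genes of lipid metabolism were counted from 5 further lists. In the list of fatty acid supply, elongation and desaturation, 17 of 20 genes in the files were tested, 4 rose, 4 fell and 9 did not pass (47.1% called, beside 27.5% of all genes), with a median log2 fold change of -0.07. Without 2D culture 1, 2 or 3 there were 2, 3 and 2 higher and 2 lower each time (8.28% to 9.06% of all genes called). With total library size 3 were higher and 8 lower (35.2% of all genes called). Acss2, which makes acetyl-CoA from acetate, was at 39.7, 35.2 and 48.9 CPM in organoids, against 4.60, 4.83 and 3.99 CPM in 2D culture (3.20 ± 0.27, edgeR adjusted p = 0.000749). Me1, the malic enzyme that supplies NADPH for lipid synthesis, was at 380.1, 230.3 and 312 CPM in organoids, against 75.9, 78.6 and 75.0 CPM in 2D culture (2.01 ± 0.24, edgeR adjusted p = 0.00237). Both were higher in all 3 organoids and stayed called in all 13 alternatives. Slc25a1, the carrier that exports the citrate used by Acly, was named after its values were seen; it was at 207, 139 and 185 CPM in organoids, against 75.2, 75.8 and 80.5 CPM in 2D culture (1.20 ± 0.21, edgeR adjusted p = 0.00905). Its call was lost without 2D culture 1, 2 or 3 (adjusted p = 0.0678, 0.0643 and 0.0635) and with total library size (0.0704). Hacd1, a dehydratase of fatty acid elongation, fell by 2.85 on the log2 scale, to 6.81 ± 3.18 CPM in organoids, against 49.0 ± 3.41 CPM in 2D culture, and stayed called in all 13 alternatives.

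Of 16 genes listed for sterol uptake, export or storage, 5 rose, 1 fell and 10 did not pass (37.5% called, beside 27.5% of all genes). The list also held the regulators Nr1h2, Nr1h3 and Mylip, of which Mylip was among the 5 higher (edgeR adjusted p = 0.0469). The median log2 fold change of the 16 was 0.51. With total library size (35.2% of all genes called) 2 were higher and 4 lower. Without 2D culture 1, 2 or 3 (8.28% to 9.06% of all genes called) there were 2 higher and 0 lower. Vldlr, a lipoprotein receptor, was at 486, 242 and 296 CPM in organoids, against 59.4, 49.6 and 52.6 CPM in 2D culture (2.66 ± 0.31, edgeR adjusted p = 0.00226). Vldlr was higher in every organoid and stayed called in all 13 alternatives. Abca1, which exports cholesterol and is switched on by sterol-sensing LXR receptors, was at 29.5, 67.1 and 23.7 CPM in organoids, against 7.17, 12.1 and 10.1 CPM in 2D culture (2.03 ± 0.47, edgeR adjusted p = 0.0205). Organoid 2 was the highest library for Abca1, unlike most sterol enzymes, and the call was lost without 2D culture 1, 2 or 3 (adjusted p = 0.0985, 0.0701 and 0.0916) and with total library size (0.0657). Gramd1a, a sterol transporter at membrane contacts, rose by 1.64 ± 0.35 (edgeR adjusted p = 0.0164), and Lipa, the lysosomal lipase that frees cholesterol from lipoprotein esters, fell by 1.17 on the log2 scale (edgeR adjusted p = 0.0333). Both lost their calls without 2D culture 1, 2 or 3 (adjusted p = 0.0805, 0.0779 and 0.0848 for Gramd1a, and 0.118, 0.101 and 0.12 for Lipa), and Gramd1a also with total library size (0.0737).

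Other genes of sterol and isoprenoid synthesis were called 4 times in 13 (30.8%, near the 27.5% of all genes), with 1 higher and 3 lower and a median of -0.15. With total library size 0 were higher and 5 lower (35.2% of all genes called). Pdss1, which starts the coenzyme Q side chain, was at 2.77, 1.50 and 2.89 CPM in organoids, against 13.4, 13.9 and 14.8 CPM in 2D culture (-2.55 ± 0.44, edgeR adjusted p = 0.0077). Acat2, the thiolase that joins acetyl-CoA units before Hmgcs1 acts, was at 49.0, 27.9 and 62.3 CPM in organoids, against 135, 130.4 and 127 CPM in 2D culture (-1.49 ± 0.31, edgeR adjusted p = 0.0153). All organoids were lower for both genes, and reads of Acat2 were partly shared in all 6 libraries. Lbr, a nuclear membrane protein that is also a sterol C14 reductase like Tm7sf2, had log2 fold change -1.82 ± 0.47 (edgeR adjusted p = 0.0297), and Fntb, a farnesyltransferase subunit, rose by 0.98 ± 0.26 (edgeR adjusted p = 0.0334). These 4 calls were lost without 2D culture 1, 2 or 3, with an adjusted p of 0.0544, 0.0535 and 0.0613 for Pdss1, 0.0705, 0.0643 and 0.0653 for Acat2, 0.105, 0.0854 and 0.103 for Lbr and 0.136, 0.134 and 0.154 for Fntb. Lbr, which also shared reads in all 6 libraries, lost it without organoid 3 too (adjusted p = 0.0678), and Fntb with total library size (0.348), with no filter on low counts (0.0507) and with the replicate block (0.0725). In the list of SREBP processing and turnover 1 of 11 genes was called (9.09%, beside 27.5% of all genes), Syvn1, a ubiquitin ligase of the endoplasmic reticulum, at 1.47 ± 0.29 (edgeR adjusted p = 0.0124), and that call too was lost without 2D culture 1, 2 or 3 (0.0748, 0.068 and 0.0683) and with total library size (0.0931).

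Genes of fatty acid oxidation and fat storage were called in 6 of 19 cases (31.6%, near the 27.5% of all genes), 2 higher and 4 lower, with a median of -0.57. With total library size 2 were higher and 9 lower (35.2% of all genes called). Without 2D culture 1, 2 or 3 there were 2 higher and 0, 1 and 1 lower (8.28% to 9.06% of all genes called). Ppard, a fatty acid-sensing nuclear receptor, was at 29.8, 70.1 and 30.5 CPM in organoids, against 3.62, 4.68 and 4.24 CPM in 2D culture (3.38 ± 0.43, edgeR adjusted p = 0.00305). Lpin1, a phosphatase of triglyceride synthesis, was at 28.3, 25.7 and 17.8 CPM in organoids, against 6.25, 4.77 and 6.25 CPM in 2D culture (2.06 ± 0.33, edgeR adjusted p = 0.00625). Both were higher in all 3 organoids and stayed called in all 13 alternatives. Cpt1a, which admits fatty acids to mitochondria for oxidation, was at 3.71, 2.28 and 0.189 CPM in organoids, against 21.9, 17.5 and 19.5 CPM in 2D culture (-3.25 ± 0.91, edgeR adjusted p = 0.0389). Its call was lost without organoid 2 (adjusted p = 0.0652) and without 2D culture 1, 2 or 3 (0.124, 0.103 and 0.113).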

How the data were processed

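The 3 organoid and 3 2D libraries were grouped by their titles. Per the labels' protocols, RNA came from a Trizol extraction and mRNA libraries were built for DNBSEQ sequencing. Of the tools, the submitters' processing notes list HISAT, HISAT2, Bowtie2, RSEM and also DESeq2, with no roles; genome build, annotation and strand setting: not given in the sources used here. The authors deposited expected counts per gene (17954 genes, not normalised), which were rounded before testing. Fractional values mark reads shared between genes.

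Tests were run with edgeR 4.0.16 (R 4.3.3): filterByExpr with a minimum count of 10, TMM scaling (factors 0.662 to 0.896 in organoids and 1.23 to 1.27 in 2D culture), and the robust quasi-likelihood F-test over all genes with Benjamini-Hochberg adjustment, called under 0.05. CPM are TMM-scaled. Standard errors follow from the log2 fold change and its F value, and 95% intervals use the fit's degrees of freedom. A count of 0 allows up to 3 counts, 0.0917 to 0.18 CPM, which covers counting error only. Alternatives used DESeq2 1.42.0 and limma 3.58.1. The spread of log2 CPM used a prior count of 2. Replicates were checked pairwise and differed beyond sampling noise (chi-square of at least 9.10 for each degree of freedom).

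The genes and lists were chosen with earlier results of these data known. All 28 genes are named; of each further list, the 3 called genes that changed most (minimum 1 CPM) and the top gene of the other direction. Promoter windows come from RefSeq GRCr8, where 17720 of the 17954 gene IDs were found.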

Additional observations from a re-analysis of the deposited data

How the results depend on the processing

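With 3 libraries a group and unequal spread, calls depend on single libraries. Leaving out 1 library gave 1 to 9 of the 28 genes higher and 0 to 3 lower, against 5 and 2 with all libraries, and 703 to 2747 of all genes higher and 399 to 2574 lower, against 1944 and 1650. Total library size gave 1 of the 28 genes higher and 7 lower (1063 and 3529 of all genes). Limma-voom weighted by group gave 4 of the 28 genes lower, and limma-voom gave 2478 of all genes lower. DESeq2 size factors, DESeq2 and no filter on low counts left these counts within 1.5 times. The cause of these shifts was not tested. Of 44 named genes, the 23 called kept their sign in all 299 values under the alternatives, and 7 of the 21 not called had another sign in at least 1. Same-numbered libraries had correlations of deviations of 0.129, 0.267 and 0.0293, so the numbers are not shown to pair them; with the replicate block 4 of the 28 genes were higher and 2 lower, and all genes called numbered 1441 higher and 1289 lower. A count of 0 in the shallowest library allows up to 0.18 CPM.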
